A study of Mus musculus with 64 samples.

Results

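The genes described here are 10 of the prostaglandin and leukotriene pathway, chosen by name as *Pla2g4a*, *Ptgs1*, *Ptgs2*, *Ptges*, *Tbxas1*, *Alox5*, *Alox5ap*, *Lta4h*, *Ptger2* and *Ptger4*. They are 10 of the 55487 genes listed in the count files, and all 10 passed the filter on low counts that left 14537 genes for testing. Their expression was followed by RNA-seq in 64 libraries of murine bone marrow-derived macrophages (BMMs), 4 libraries in each of 16 groups. BMMs came from female wild-type C57BL/6JRj mice (*Ahr*+/+) or from *Ahr*-/- mice backcrossed in-house to that strain, all 8 to 12 weeks old, with 4 mice per genotype. Bone marrow cells were differentiated in medium conditioned by L929 fibroblasts, a source of macrophage colony-stimulating factor. The study asked how ligands of the aryl hydrocarbon receptor (AhR) modulate the response of BMMs to microbial patterns. BMMs were exposed for 6 h to benzo[a]pyrene (BaP, 1 µM), a combustion product, to indole-3-carbinol (I3C, 10 µM), a dietary indole, or to the vehicle DMSO (0.01%). They then received 10000000 heat-killed *Salmonella* Enteritidis (hk S.E.) per ml, made from a vaccine strain, for 3 h or 20 h. At each time point and in each genotype, 1 further group got DMSO and no hk S.E. and is called unactivated below. Neither ligand was given without hk S.E., so ligand effects are known in activated BMMs alone.

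Eicosanoids are lipid mediators made from arachidonic acid, which cytosolic phospholipase A2 cuts out of membrane phospholipids. Cyclooxygenases turn it into prostaglandin H2, from which terminal synthases form prostaglandin E2 (PGE2) or thromboxane A2. In a parallel branch, 5-lipoxygenase and its activating protein make leukotriene A4, from which leukotriene A4 hydrolase forms the neutrophil attractant leukotriene B4. Macrophages are a major source of both classes, and PGE2 acts back on them through receptors that raise cyclic AMP.

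The median library held 24499165 counts on genes, and the range was 12152496 to 50644601, apart from replicate 4 of unactivated *Ahr*+/+ BMMs at 20 h with 233047331. *Ahr* counts were higher in *Ahr*-/- than in *Ahr*+/+ BMMs (unactivated at 3 h, mean 6.63 against 3.17 CPM, which are counts scaled to the library size), and counts over all exons say nothing about the deleted part. *Ahrr*, the gene of the AhR repressor, rose with BaP at 3 h from a mean of 0.514 to 5.37 CPM in *Ahr*+/+ BMMs and had a mean of at most 0.911 CPM in any activated *Ahr*-/- group. The 6 macrophage markers summed to 16236 to 32073 CPM per library, while those of mast cells, platelets, dendritic cells and lymphocytes stayed at or below a sum of 2.43 CPM. Among the *Ahr*-/- libraries, those numbered 3 and 4 stood apart by the collagen genes *Col1a1* and *Col1a2*, which summed to 2.31 to 7.82 CPM there, to 0.127 to 1.33 CPM in numbers 1 and 2 and to at most 0.943 CPM in *Ahr*+/+ libraries. Results that rest on *Ahr*-/- libraries were therefore also computed from numbers 1 and 2 alone, a choice made after seeing the data. All 4 fibroblast markers, with *Dcn* and *Pdgfra* added to the collagen genes, summed to 2.58 to 7.88 CPM in *Ahr*-/- numbers 3 and 4. That sum was 0.188 to 1.52 CPM in *Ahr*-/- numbers 1 and 2. It reached 2.73 CPM in *Ahr*+/+ libraries, so that by the full list numbers 3 and 4 overlapped with *Ahr*+/+ libraries. Library identifiers were grouped into 3 series. The identifier of unactivated *Ahr*+/+ replicate 2 of 20 h has a prefix of its own. It was put into the series of the *Ahr*-/- libraries of 20 h. All *Ahr*-/- libraries of 20 h belong to 1 series and all activated *Ahr*+/+ libraries of 20 h to another, so that in activated BMMs at 20 h genotype and series cannot be told apart. No activated *Ahr*-/- library of 3 h belongs to the series of the *Ahr*-/- libraries of 20 h. In activated *Ahr*-/- BMMs, time and series thus cannot be told apart either. The sources do not say that these series were batches.

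In unactivated *Ahr*+/+ BMMs at 3 h, *Alox5ap*, the 5-lipoxygenase activating protein, had the highest level of the 10 genes per length of transcript, with a mean of 225 CPM per kb. *Tbxas1*, the thromboxane synthase, followed with 16.9 CPM per kb and *Lta4h* with 9.91. *Alox5*, the 5-lipoxygenase itself, was at 1.61 CPM per kb, *Ptges*, the microsomal PGE2 synthase, at 1.25 and *Ptgs2*, the inducible cyclooxygenase COX-2, at 0.205, the lowest of the 10. After 3 h with hk S.E. and DMSO, *Ptgs2* had the highest level, with 289 CPM per kb, before *Alox5ap* with 202 and *Ptges* with 56.5. After 20 h it was *Ptges* with 314 CPM per kb, before *Ptgs2* with 165 and *Alox5ap* with 41.7, and *Alox5* and *Ptgs1* were the lowest with 0.0919 and 0.0381. The order thus ran from a leukotriene gene at the top without hk S.E. to 2 genes of PGE2 synthesis at the top after 20 h with it. After 3 h, *Alox5ap* still stood between *Ptgs2* and *Ptges*.

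**Figure D1:**
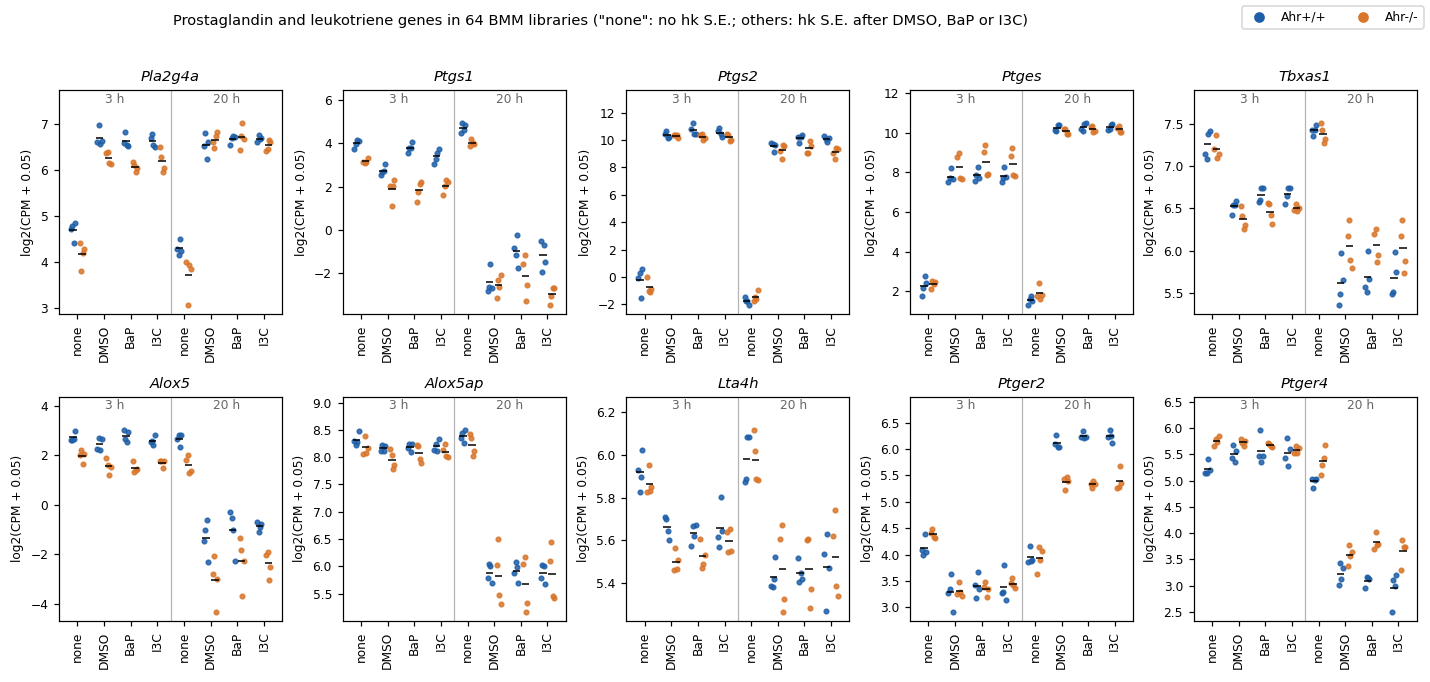
Level of each of the 10 genes in every library, as log2(CPM + 0.05) on the vertical axis, by treatment (none, or hk S.E. after 1 of DMSO, BaP and I3C) and time point (3 h and 20 h). Points are libraries, with *Ahr*+/+ in blue and *Ahr*-/- in orange, and dashes are group means (n = 4). *Ptgs2* and *Ptges* are high in every activated group, and *Ptgs1* and *Alox5* are near the floor in every activated group of 20 h.

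Promoters of 4 genes are shown because the study is about a transcription factor with a short known response element, GCGTG (the core of the AhR response element, AHRE I), and because *Ptgs1* and *Ptgs2* encode enzymes of the same reaction and moved apart with hk S.E. They are RefSeq sequences on GRCm38.p6, from 250 bases before to 50 bases after the annotated start, printed 5′ to 3′ on the gene's strand. Capitals mark matches to GCGTG, to CACGTG (an E-box) or to TTGCGCAA (a C/EBP motif), each searched on both strands.
Pla2g4a, chr1:149961241-149961540, minus strand: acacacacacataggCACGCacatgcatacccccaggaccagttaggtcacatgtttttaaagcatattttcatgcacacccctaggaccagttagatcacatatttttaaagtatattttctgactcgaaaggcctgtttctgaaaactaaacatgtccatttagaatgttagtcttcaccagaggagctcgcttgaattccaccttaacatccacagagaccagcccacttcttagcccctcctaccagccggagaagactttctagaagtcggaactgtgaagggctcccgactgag
Ptgs2, chr1:150099781-150100080, plus strand: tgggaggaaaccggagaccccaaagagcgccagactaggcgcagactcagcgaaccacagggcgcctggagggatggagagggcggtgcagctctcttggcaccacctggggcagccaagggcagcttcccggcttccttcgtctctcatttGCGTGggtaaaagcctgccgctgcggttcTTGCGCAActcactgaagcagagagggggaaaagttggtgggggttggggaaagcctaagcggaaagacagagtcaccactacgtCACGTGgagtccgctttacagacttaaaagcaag
Ptges, chr2:30903248-30903547, minus strand: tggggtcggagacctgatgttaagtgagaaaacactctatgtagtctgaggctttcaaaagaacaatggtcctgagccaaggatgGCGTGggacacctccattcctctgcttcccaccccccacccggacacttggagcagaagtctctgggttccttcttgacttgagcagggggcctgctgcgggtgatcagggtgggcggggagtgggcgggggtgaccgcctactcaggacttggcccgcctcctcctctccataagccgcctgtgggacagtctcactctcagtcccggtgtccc
Ptgs1, chr2:36230176-36230475, plus strand: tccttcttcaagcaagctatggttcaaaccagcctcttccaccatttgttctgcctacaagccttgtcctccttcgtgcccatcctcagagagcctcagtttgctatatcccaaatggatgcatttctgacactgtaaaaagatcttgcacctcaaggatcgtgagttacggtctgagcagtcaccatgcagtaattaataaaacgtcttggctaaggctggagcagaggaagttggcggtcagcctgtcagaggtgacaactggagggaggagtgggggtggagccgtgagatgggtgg

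Of the 10 genes, 9 had a promoter entry, and *Alox5ap* had none. GCGTG occurred in 3 of the 9 (*Pla2g4a*, *Ptgs2* and *Ptges*) and in 32.4% of all 32851 promoters of this length. It began 98 bases before the start of *Ptgs2* and 165 before that of *Ptges*, and in *Pla2g4a* it lay on the opposite strand, where it reads CACGC, from 235 to 231 bases before the start. TTGCGCAA was found in *Ptgs2*, from 69 to 62 bases before its start, and in 0.183% of all promoters, and CACGTG in *Ptgs2*, 17 to 22 bases after its start, and in 7.15%. GGGTGCAT (RelB AHRE, 0.521% of all promoters), TGACGTCA (a cyclic AMP response element, 1.79%) and the NF-kappaB motif (8.46%) were in none of the 9 windows. A match is a run of letters and no measured binding, and its absence says only that these letters are not in this window.

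With hk S.E., *Pla2g4a*, *Ptgs2* and *Ptges*, which lead from phospholipids to PGE2, rose, while the constitutive cyclooxygenase, thromboxane synthase and, by 20 h, all 3 leukotriene genes fell. In *Ahr*+/+ BMMs at 3 h, 7 of the 10 genes were called, 3 higher and 4 lower, where 56.6% of all genes tested were called (24.2% higher and 32.3% lower). At 20 h all 10 were called, 4 higher and 6 lower, where the background was 58.6% (29.9% higher and 28.7% lower). The same 7 were called at 3 h and all 10 at 20 h in *Ahr*-/- BMMs, in the same directions, against a background of 57.3% (25.5% higher, 31.8% lower) and 54.3% (28.3% higher, 26% lower). A gene was called at an adjusted p below 0.01 from edgeR's quasi-likelihood test. With *Ahr*-/- libraries 1 and 2 alone, the counts were again 7 and 10. The median log2 fold change of the 10 genes in *Ahr*+/+ BMMs was -0.21 at 3 h and -1.16 at 20 h, where that of all genes was -0.10 and -0.00. RNA was taken from whole cultures, so fewer cells of a type and less RNA per cell cannot be told apart in any value that fell.

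**Figure D2:**
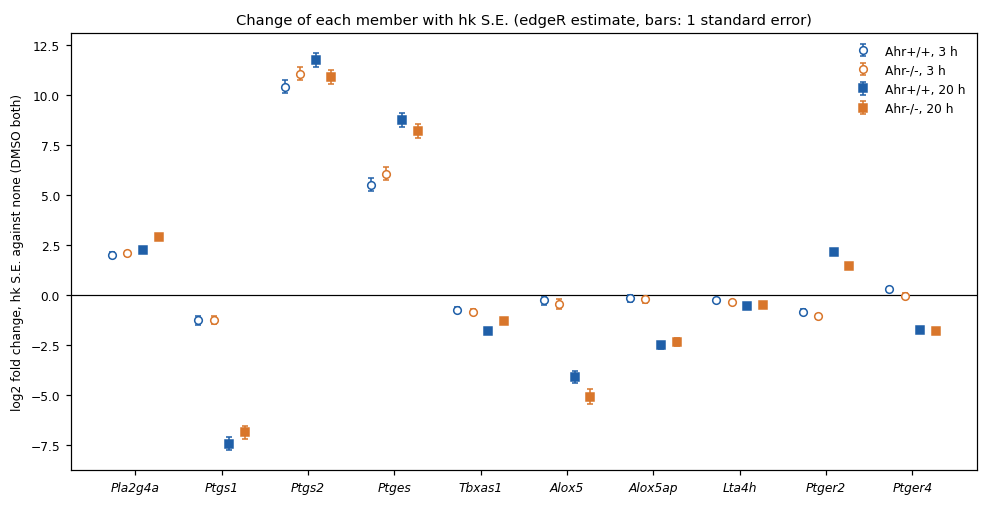
Log2 fold change of the 10 genes with hk S.E. against unactivated BMMs (DMSO in both), with bars of 1 SE, in *Ahr*+/+ and *Ahr*-/- BMMs at 3 h and 20 h. *Ptgs2* and *Ptges* are the highest at both time points, and *Ptger2* lies below 0 at 3 h and above 0 at 20 h in either genotype.

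*Pla2g4a* (ENSMUSG00000056220.14, chr1:149829618-149961290, minus strand), the cytosolic phospholipase A2 that frees arachidonic acid, rose within 3 h and was about as high at 20 h. Unactivated *Ahr*+/+ libraries of 3 h had 26.2, 27.6, 21.2 and 28.7 CPM, and hk S.E. libraries 97.5, 126, 95.4 and 99.6 CPM. At 20 h, the values were 19.3, 17.8, 22.7 and 19.0 CPM without and 92.7, 113, 75.7 and 98.2 CPM with hk S.E. No activated library overlapped an unactivated one. The log2 fold change was 2.01 (SE 0.14) at 3 h and 2.27 (SE 0.14) at 20 h, and in *Ahr*-/- BMMs 2.08 (SE 0.14) and 2.91 (SE 0.14).

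*Ptgs2* (ENSMUSG00000032487.8, chr1:150100031-150108227, plus strand) had the largest change of the 10 genes. In unactivated *Ahr*+/+ BMMs it was at 0.876, 1.15, 0.296 and 1.42 CPM at 3 h, and with hk S.E. at 1357, 1601, 1144 and 1192 CPM. At 20 h, 0.314, 0.251, 0.248 and 0.189 CPM stood against 857, 816, 559 and 792 CPM. *Ptgs2* thus went from near the detection limit to among the abundant transcripts in each of these libraries. The ratio of mean CPM was 1412 at 3 h and 3015 at 20 h. From counts pooled over the libraries of a group it was 1359 (95% counting interval 1117 to 1671) and 3611 (2901 to 4555), where the deepest library, unactivated replicate 4 of 20 h, held 56 of the 80 unactivated counts. The fitted log2 fold changes were 10.41 (SE 0.32, edgeR adjusted p = 1.88e-34) and 11.72 (SE 0.35, adjusted p = 5.99e-35). *Ahr*-/- BMMs had ratios of mean CPM of 2185 and 1987, and of pooled counts of 2159 (1700 to 2786) and 1961 (1484 to 2652). The intervals cover counting error only.

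*Ptgs1* (ENSMUSG00000047250.13, chr2:36230426-36252272, plus strand) encodes COX-1, the cyclooxygenase that most tissues make without stimulation. It fell in *Ahr*+/+ BMMs from 13.3, 15.8, 17.6 and 17.4 CPM to 5.69, 6.33, 6.44 and 8.28 CPM at 3 h (log2 fold change -1.26, SE 0.22, edgeR adjusted p = 9.52e-07). At 20 h it went from 21.9, 30.2, 24.8 and 28.3 CPM to 0.0898, 0.112, 0.283 and 0.106 CPM (log2 fold change -7.43, SE 0.32, adjusted p = 1.18e-27). The 4 activated libraries of 20 h held 19 counts of *Ptgs1* together and the unactivated ones 10689, of which 8402 came from replicate 4. The mean CPM was 178-fold higher without hk S.E., and the ratio of pooled counts was 187 (95% counting interval 119 to 310). In *Ahr*-/- BMMs, also with 19 counts in the activated group, these ratios were 127 and 116 (74.1 to 193). So few counts leave the level at 20 h imprecise, but no activated library came near an unactivated one.

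Set per length, the 2 cyclooxygenases changed places. In unactivated *Ahr*+/+ BMMs, the median library had 17-fold more *Ptgs1* than *Ptgs2* at 3 h and 128-fold more at 20 h. With hk S.E. and DMSO, it had 176-fold more *Ptgs2* than *Ptgs1* at 3 h and 6238-fold more at 20 h, where single libraries ranged from 1674 to 8084. *Ahr*-/- BMMs had a median of 277-fold at 3 h and 4853-fold at 20 h.

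*Ptges* (ENSMUSG00000050737.13, chr2:30889471-30929863, minus strand), the inducible enzyme that turns prostaglandin H2 into PGE2, went on rising after 3 h. It was at 3.31, 4.44, 6.76 and 5.22 CPM without and at 185, 208, 294 and 201 CPM with hk S.E. in *Ahr*+/+ BMMs at 3 h, and at 2.41, 3.02, 3.37 and 2.84 against 1120, 1100, 1360 and 1358 CPM at 20 h. Log2 fold changes were 5.50 (SE 0.32, edgeR adjusted p = 4.92e-22) and 8.73 (SE 0.36, adjusted p = 2.25e-28), and 6.05 (SE 0.32) and 8.20 (SE 0.36) in *Ahr*-/- BMMs. *Tbxas1* (ENSMUSG00000029925.13, chr6:38875404-39084585, plus strand), which takes the same substrate to thromboxane A2, fell. In *Ahr*+/+ BMMs at 20 h it went from 172, 164, 173 and 179 CPM to 40.8, 44.6, 62.5 and 50.2 CPM. The log2 fold change was -0.74 (SE 0.12, edgeR adjusted p = 2.99e-07) at 3 h. At 20 h, it was -1.79 (SE 0.12, adjusted p = 3.30e-19). The 2 synthases that compete for prostaglandin H2 thus changed in opposite directions. An unnamed gene model overlaps the span of each on the same strand (*Gm13400* for *Ptges*, *Gm23010* for *Tbxas1*). Any read pairs that lay wholly on exon bases of both were counted for neither.

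Of the 3 leukotriene genes, *Alox5* and *Alox5ap* were called lower at 20 h and not at 3 h, and *Lta4h* at both time points. At 3 h, *Alox5* (ENSMUSG00000025701.12, chr6:116410077-116461178, minus strand) was at 6.14, 6.15, 6.16 and 7.92 CPM without and 4.64, 6.45, 4.57 and 6.21 CPM with hk S.E. in *Ahr*+/+ BMMs, and the groups overlapped (log2 fold change -0.27, SE 0.24, edgeR adjusted p = 0.347). *Alox5ap* (ENSMUSG00000060063.9, chr5:149264767-149288153, plus strand) was at 313, 300, 310 and 356 CPM without and 278, 297, 278 and 295 CPM with hk S.E. These groups did not overlap, but the difference was not called (log2 fold change -0.16, SE 0.17, adjusted p = 0.451). At 20 h, *Alox5* went from 6.17, 6.91, 4.93 and 6.92 CPM to 0.314, 0.448, 0.597 and 0.149 CPM, a log2 fold change of -4.09 (SE 0.30, edgeR adjusted p = 8.94e-18). *Alox5ap* went from 325, 348, 306 and 362 CPM to 55.3, 65.6, 64.2 and 51.5 CPM, a log2 fold change of -2.50 (SE 0.18, adjusted p = 7.77e-18). Both groups were far apart in each gene.

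In *Ahr*-/- BMMs at 20 h, *Alox5* had 12 counts over the 4 activated libraries, 1 of them at 0, against 413 in the unactivated ones, a ratio of mean CPM of 34.6 and of pooled counts of 33.3 (95% counting interval 18.9 to 65). The *Ahr*+/+ ratios were 16.5 and 19.1 (14.2 to 26.2), from 45 and 2587 counts, of which unactivated replicate 4 held 2051. *Lta4h* (ENSMUSG00000015889.8, chr10:93453411-93484875, plus strand), which makes leukotriene B4, changed least. It was at 61.0, 56.6, 59.5 and 64.9 CPM without and 52.3, 51.9, 49.9 and 48.5 CPM with hk S.E. at 3 h in *Ahr*+/+ BMMs, and at 58.5, 59.2, 67.8 and 67.8 against 41.7, 41.6, 42.7 and 45.9 CPM at 20 h. Its log2 fold change was -0.26 (SE 0.08, edgeR adjusted p = 0.00514) at 3 h. At 20 h, it was -0.56 (SE 0.08, adjusted p = 2.13e-08). The call at 3 h was lost with DESeq2 (-0.19, adjusted p = 0.0333), with RLE size factors (-0.20, adjusted p = 0.0289) and without any 1 of the 4 activated libraries or of unactivated replicates 1 and 4 (-0.25 to -0.18, adjusted p 0.0108 to 0.056).

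Macrophage markers also moved with time in culture with hk S.E. Their sum was 24556 to 27739 CPM in unactivated and 16521 to 20489 CPM in activated *Ahr*+/+ BMMs at 20 h, and 27140 to 31982 against 18290 to 29996 CPM in *Ahr*-/- BMMs, and most of the sum was *Lyz2*. Single markers moved in different ways. In *Ahr*+/+ BMMs at 20 h, the mean of *Mertk*, a receptor for the uptake of dead cells, fell from 94.8 to 8.59 CPM (log2 fold change -3.46, SE 0.22). *Cd68*, *Lyz2* and *Csf1r* fell by 0.85, 0.81 and 0.61 on the log2 scale, *Adgre1* rose by 1.91 and *Itgam* was at -0.12 (edgeR adjusted p = 0.405). The 6 neutrophil markers, of a cell type that also expresses *Alox5* and *Alox5ap*, summed to 9.06 to 20.6 CPM without and 43.1 to 98.7 CPM with hk S.E. in *Ahr*+/+ BMMs at 3 h. *S100a8* and *Ltf* carried that sum, while *Ly6g*, *Mpo* and *Elane* were at most 0.482 CPM and at 0 in 35, 44 and 41 of 64 libraries. The part of either marker list in the results was not tested.

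The 2 receptors of PGE2 that raise cyclic AMP, EP2 and EP4, moved in opposite directions by 20 h. *Ptger2* (ENSMUSG00000037759.6, chr14:44988195-45003820, plus strand), the gene of EP2, first fell and then rose. It went from 17, 15.9, 20.9 and 16.5 CPM to 9.63, 10.1, 12.4 and 7.50 CPM at 3 h and from 14.4, 17.8, 14.6 and 14.9 CPM to 68.1, 77.2, 65.4 and 65.8 CPM at 20 h in *Ahr*+/+ BMMs. The groups did not overlap at either time point, and the log2 fold change was -0.83 (SE 0.12, edgeR adjusted p = 2.22e-08) at 3 h. At 20 h, it was 2.16 (SE 0.11, adjusted p = 7.29e-24). *Ptger4* (ENSMUSG00000039942.15, chr15:5206661-5244187, minus strand), the gene of EP4, was at 35.4, 35.1, 42.6 and 36.6 CPM without and 43.0, 51.1, 40.6 and 47.3 CPM with hk S.E. at 3 h. Those groups overlapped, and the log2 fold change of 0.28 (SE 0.12, edgeR adjusted p = 0.0334) was not called, while DESeq2 called it (0.35, adjusted p = 0.00846), as edgeR did without activated replicate 3 (0.39, adjusted p = 0.00788). At 20 h it fell from 32.7, 29.1, 32.3 and 32.6 CPM to 8.04, 10.7, 8.64 and 10.0 CPM, a log2 fold change of -1.76 (SE 0.12, adjusted p = 1.50e-18). *Ptger2* in *Ahr*-/- BMMs had log2 fold changes of -1.07 (SE 0.12) and 1.44 (SE 0.11) and *Ptger4* of -0.03 (SE 0.12, adjusted p = 0.847) and -1.80 (SE 0.12).

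From 3 h to 20 h, the pathway of activated BMMs moved further toward *Ptges* and *Ptger2* and away from *Ptgs1*, *Alox5*, *Alox5ap* and *Ptger4*. With hk S.E. after DMSO, 9 of the 10 genes differed between the time points in *Ahr*+/+ BMMs, 2 higher and 7 lower at 20 h, where 59.5% of all genes did. For *Ahr*-/- BMMs the number was 8, 3 higher and 5 lower, against 56%, and there time and series of identifiers coincide. *Ptges* was higher at 20 h by 2.48 (SE 0.27) on the log2 scale in *Ahr*+/+ and 1.67 (SE 0.26) in *Ahr*-/- BMMs, and *Ptger2* by 2.80 (SE 0.12) and 2.07 (SE 0.12). *Ptgs2* was lower at 20 h in both, by -0.81 (SE 0.20, edgeR adjusted p = 4.13e-04) and -0.99 (SE 0.20). A covariate for the series of identifiers turned the latter into -1.89. The series of the *Ahr*-/- libraries of 3 h and of 20 h occur together only in unactivated groups, where *Ptgs2* was at most 1.42 CPM. That fit therefore cannot separate time from series in activated *Ahr*-/- BMMs, and -1.89 is not read as a larger fall. For *Lta4h*, the call in *Ahr*+/+ BMMs (-0.24, SE 0.08, adjusted p = 0.00899) was lost without activated replicate 1, 2 or 3 of 20 h (adjusted p 0.0204 to 0.0273). For *Pla2g4a* in *Ahr*-/- BMMs, that at 0.41 (SE 0.13, adjusted p = 0.00618) was lost with libraries 1 and 2 alone (0.15, adjusted p = 0.489), with the series as a covariate (0.29, adjusted p = 0.156), with DESeq2 (0.31, adjusted p = 0.0384) and without any of the 4 libraries of 3 h or replicates 3 and 4 of 20 h (adjusted p 0.0166 to 0.0501). *Tbxas1* in *Ahr*-/- BMMs was not called (-0.30, SE 0.12, adjusted p = 0.0229), but it was with the replicate number as a block (-0.32, adjusted p = 2.11e-04), with DESeq2 (-0.40, adjusted p = 0.00174) and without *Ahr*-/- DMSO replicate 3 or 4 of 3 h or replicate 2 of 20 h (adjusted p 0.00342 to 0.00862).

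The change of the hk S.E. effect from 3 h to 20 h was called for 8 genes in *Ahr*+/+ BMMs (47.8% of all genes) and for 7 in *Ahr*-/- BMMs (44.7%). In *Ahr*+/+ BMMs, the effect became more positive for *Ptges* by 3.23, for *Ptger2* by 2.99 and for *Ptgs2* by 1.30 (SE 0.43, edgeR adjusted p = 0.00837) on the log2 scale. It became more negative for *Ptgs1* (-6.16), *Alox5* (-3.83), *Alox5ap* (-2.35), *Ptger4* (-2.04) and *Tbxas1* (-1.05). The change of *Ptgs2* rested on unactivated levels below 1.5 CPM, and its call was lost with the replicate block (1.29, adjusted p = 0.0137) and without any of 12 single libraries, which were all 4 unactivated and activated replicates of either time point other than unactivated replicate 3 and activated replicate 2 of 3 h and unactivated replicate 1 and activated replicate 3 of 20 h. Those 12 fits gave 1.01 to 1.34, the lowest without unactivated replicate 4 of 20 h (adjusted p = 0.093). The called changes in *Ahr*-/- BMMs were those of *Pla2g4a* (0.83), *Ptges* (2.15), *Ptger2* (2.51), *Ptgs1* (-5.61), *Alox5* (-4.64), *Alox5ap* (-2.11) and *Ptger4* (-1.77). *Ahr*-/- libraries 1 and 2 alone gave 0.65 (adjusted p = 0.0388) for *Pla2g4a*, which was then not called, and 1.54 for *Ptges*. With the replicate block, *Lta4h* in *Ahr*+/+ (-0.30, adjusted p = 0.00425) and *Tbxas1* in *Ahr*-/- BMMs (-0.49, adjusted p = 5.73e-05) were called in addition.

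In unactivated BMMs, few of the genes differed between 3 h and 20 h. In *Ahr*+/+ BMMs, 1 of 10 was called (6.07% of all genes), *Ptgs2*, which was lower at 20 h (-2.11, SE 0.39, edgeR adjusted p = 9.48e-05). *Ptgs1* was higher in all 4 libraries of 20 h than in any of 3 h, yet was not called (0.71, SE 0.20, adjusted p = 0.0125). It was called with the replicate block (0.72, adjusted p = 5.98e-04) and with DESeq2 (0.71, adjusted p = 0.00182), and the block also called *Ptges* (-0.75, adjusted p = 0.00799). In *Ahr*-/- BMMs, 2 were called (6.98% of all genes), *Ptgs1* with 0.85 (SE 0.21, adjusted p = 0.00285) and *Ptger2* with -0.44 (SE 0.11, adjusted p = 0.00442). *Ptgs1* lost its call without *Ahr*-/- replicate 3 of 3 h (adjusted p = 0.0114) or replicate 2 of 20 h (adjusted p = 0.0119). *Ptger2* lost it without replicate 2 of 3 h (adjusted p = 0.0184) or replicates 1 or 3 of 20 h (adjusted p = 0.0515 and 0.0142), and both lost it with the series as a covariate (adjusted p = 0.028 and 0.0492). *Ptger4* gained a call with the block (-0.36, adjusted p = 0.00414) and without replicate 4 of 20 h (-0.47, adjusted p = 0.00724), and *Pla2g4a* without replicate 2 of 3 h (-0.52, adjusted p = 0.00994).

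Whether the response to hk S.E. itself differed between the genotypes was tested as the difference of the 2 log2 fold changes. At 3 h, edgeR called none of the 10 genes, 0 had an unadjusted p under 0.05 and DESeq2 called 0, and of all genes 0.0138% were called. At 20 h, 1 was called, *Ptger2*, where 4.41% of all genes were. Its rise was smaller in *Ahr*-/- BMMs by 0.72 on the log2 scale (-0.72, SE 0.16, edgeR adjusted p = 0.00126). The call was lost when only the 4 groups compared were fitted (-0.72, adjusted p = 0.0125) and with *Ahr*-/- libraries 1 and 2 alone (-0.72, adjusted p = 0.0124), in both cases at the same size. With the replicate block, *Ptger2* (-0.72, adjusted p = 1.32e-04) was joined by *Pla2g4a*, whose rise was larger in *Ahr*-/- BMMs (0.65, adjusted p = 0.00688), and by *Tbxas1*, whose fall was smaller there (0.48, adjusted p = 6.05e-04). Without the block, these 2 had an adjusted p of 0.0237 and 0.0599. Over all 14537 genes tested, the number called was 641 without the block and 1505 with it.

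Between the genotypes, *Ptger2* at 20 h had the lowest adjusted p of the 10 genes. Without hk S.E., *Ptger4* at 3 h and *Alox5* at 20 h were called, both with an adjusted p close to the threshold. In unactivated BMMs at 3 h, 1 of 10 genes was called (1.21% of all genes), *Ptger4*, with 35.4, 35.1, 42.6 and 36.6 CPM in *Ahr*+/+ and 50.2, 55.2, 53.3 and 57.2 CPM in *Ahr*-/- BMMs. Every *Ahr*-/- library was higher than any *Ahr*+/+ library (log2 fold change 0.53, SE 0.12, edgeR adjusted p = 0.00525), and groups did not overlap for 5.94% of all genes. That call was lost without *Ahr*+/+ replicate 1, 2 or 4 or *Ahr*-/- replicate 2, 3 or 4 (0.50 to 0.53, adjusted p 0.0167 to 0.0313), with *Ahr*-/- libraries 1 and 2 alone (0.49, adjusted p = 0.0682) and with the series as a covariate (0.50, adjusted p = 0.0133). *Ptgs1* lay lower in every *Ahr*-/- library, with 8.68, 8.50, 8.79 and 9.80 CPM against 13.3 to 17.6 CPM in *Ahr*+/+ BMMs, at a log2 fold change of -0.84 (SE 0.21, adjusted p = 0.0119). DESeq2 called it (adjusted p = 8.28e-04), as well as *Alox5* (-0.75, adjusted p = 0.00507). *Pla2g4a* was at -0.51 (SE 0.14, edgeR adjusted p = 0.0266) and passed without *Ahr*+/+ replicate 3 (-0.60, adjusted p = 0.0099).

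At 20 h without hk S.E., *Alox5* was the 1 gene called (0.702% of all genes), with 6.17, 6.91, 4.93 and 6.92 CPM in *Ahr*+/+ and 3.43, 3.96, 2.40 and 2.55 CPM in *Ahr*-/- BMMs. These groups did not overlap (log2 fold change -1.04, SE 0.24, edgeR adjusted p = 0.00911). The call was lost without *Ahr*+/+ replicate 1, 2 or 4 or *Ahr*-/- replicate 3 or 4 (-1.05 to -0.94, adjusted p 0.0267 to 0.0621) and with *Ahr*-/- libraries 1 and 2 alone (-0.77, adjusted p = 0.0559). *Pla2g4a* and *Ptgs1* were also lower in every *Ahr*-/- library and *Ptger4* higher, with adjusted p values of 0.0271, 0.0471 and 0.0562. Thus 4 of the 10 genes had groups that did not overlap, where 8.28% of all genes did.

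In activated BMMs at 3 h, edgeR called none of the 10 genes between the genotypes, where it called 2.83% of all genes. An unadjusted p under 0.05 was found for 5 of them, a count for which no share of all genes is given here. Of 12308 genes with an adjusted p, DESeq2 called 572, and of the 10 genes it called 2. These were *Ptgs1* (-0.84, SE 0.23, edgeR adjusted p = 0.0186, DESeq2 adjusted p = 0.0027) and *Alox5* (-0.92, SE 0.26, edgeR adjusted p = 0.0195, DESeq2 adjusted p = 6.29e-04). *Alox5* was at 4.64, 6.45, 4.57 and 6.21 CPM in *Ahr*+/+ and 3.61, 2.97, 2.25 and 2.81 CPM in *Ahr*-/- BMMs. These 2 genes, *Pla2g4a* and *Lta4h* were lower in every *Ahr*-/- library than in any *Ahr*+/+ library, 4 of 10, where groups did not overlap for 12.1% of all genes. *Ptges* was at 433 and 508 CPM in *Ahr*-/- replicates 1 and 2 and at 208 and 205 CPM in replicates 3 and 4, against 185 to 294 CPM in *Ahr*+/+ BMMs (0.61, SE 0.26, adjusted p = 0.161). Libraries 1 and 2 alone gave 1.08 (SE 0.18, adjusted p = 1.38e-04) for *Ptges* and -1.16 (adjusted p = 0.00292) for *Ptgs1*, which were both called then.

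At 20 h with hk S.E., 3 of 10 genes were called between the genotypes, 2 lower and 1 higher in *Ahr*-/- BMMs, where 12.5% of all genes were called. *Ptger2* was at 68.1, 77.2, 65.4 and 65.8 CPM in *Ahr*+/+ and 43.3, 37.1, 44.1 and 41.9 CPM in *Ahr*-/- BMMs, groups that did not overlap, as for 20.4% of all genes (log2 fold change -0.73, SE 0.11, edgeR adjusted p = 1.20e-06). The same held with ligand, where *Ahr*+/+ BMMs had 73.6 to 81.1 CPM with BaP and 69.6 to 82.4 CPM with I3C, and *Ahr*-/- BMMs 38.1 to 42.2 and 38.4 to 51.3 CPM. With the series of identifiers as a covariate, which the fit can estimate only from the groups that hold several series, the difference after DMSO was -0.70 (adjusted p = 9.18e-04). *Alox5* was lower (-2.02, SE 0.48, adjusted p = 0.00149), from 45 counts in *Ahr*+/+ and 12 in *Ahr*-/- libraries, a ratio of pooled counts of 4.1 (95% counting interval 2.13 to 8.52). Its call was lost without *Ahr*+/+ replicate 3 (-1.66, adjusted p = 0.0197) or *Ahr*-/- replicate 4 (-1.91, adjusted p = 0.0103) and with *Ahr*-/- libraries 1 and 2 alone (-1.36, adjusted p = 0.0564). *Tbxas1* was higher, with 72.0, 82.3, 59.1 and 55.5 CPM against 40.8, 44.6, 62.5 and 50.2 CPM, groups that overlapped (0.44, SE 0.12, adjusted p = 0.00534). That call was lost without *Ahr*+/+ replicate 1, 2 or 4 or *Ahr*-/- replicate 1 or 2 (0.33 to 0.44, adjusted p 0.0123 to 0.0626) and with the series as a covariate (0.47, adjusted p = 0.0496). *Alox5ap* was not called (0.01, SE 0.18, adjusted p = 0.973), but was called higher with *Ahr*-/- libraries 1 and 2 alone (0.39, SE 0.12, adjusted p = 0.00851).

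Several of the genes split by library number, taken here as the mouse, *Ptges* and *Tbxas1* in opposite directions in the 2 genotypes. *Ptges* was higher in libraries 1 and 2 than in 3 and 4 in 6 of 6 activated *Ahr*-/- groups, at 433 to 656 against 205 to 241 CPM at 3 h and 1161 to 1296 against 973 to 1069 CPM at 20 h. *Alox5ap* was higher in libraries 1 and 2 in 6 of 6 as well, at 64.8 to 90.4 against 36.0 to 44.5 CPM at 20 h, and *Alox5* in 5 of 6. In activated *Ahr*+/+ BMMs, *Ptges* was lower in libraries 1 and 2 in 4 of 6 groups, at 185 to 235 against 201 to 308 CPM at 3 h and 1093 to 1164 against 1358 to 1418 CPM at 20 h, while *Alox5ap* split in 0 of 6 and was at 51.3 to 68.0 CPM at 20 h. *Tbxas1* was lower in libraries 1 and 2 in 8 of 8 *Ahr*+/+ groups, at 40.8 to 47.5 against 50.2 to 63.8 CPM in activated BMMs of 20 h, and higher there in 7 of 8 *Ahr*-/- groups, at 72.0 to 82.3 against 53.0 to 61.7 CPM. The summed *Col1a1* and *Col1a2* level was lower in libraries 1 and 2 in 8 of 8 *Ahr*-/- groups, and its part in these values was not tested. How many of all genes split in this way was not computed, so the split is not shown to be particular to these genes.

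**Figure D3:**
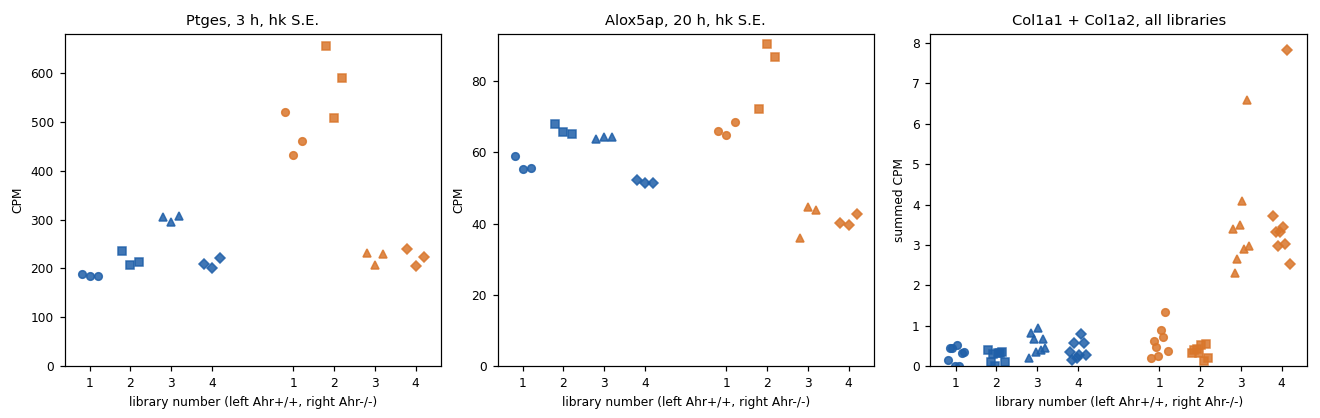
CPM by library number (1 to 4) and genotype for *Ptges* in activated BMMs at 3 h, *Alox5ap* in activated BMMs at 20 h, and the sum of *Col1a1* and *Col1a2* in all groups. Points are libraries, and *Ahr*-/- libraries 1 and 2 lie above 3 and 4 for *Ptges* and *Alox5ap* and below them for the collagen genes.

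With either ligand, no difference of the 10 genes passed the threshold. For BaP and I3C against DMSO in activated BMMs of either genotype at 3 h and 20 h, edgeR called 0 of 10 in each of the 8 comparisons. The share of all genes called was 0.0482% and 0.234% for BaP and 0.131% and 0.509% for I3C in *Ahr*+/+ BMMs at 3 h and 20 h, and 0.0275%, 0.0138%, 0.0206% and 0.206% in *Ahr*-/- BMMs in the same order. In *Ahr*+/+ BMMs, 1 and 2 of the genes had an unadjusted p under 0.05 with BaP and 1 and 2 with I3C, and in *Ahr*-/- BMMs 0 in each comparison. No share of all genes is given here for these counts, so they are not read as a difference between the genotypes. DESeq2 called 1 gene with BaP in *Ahr*+/+ BMMs at 3 h and at 20 h, *Ptgs1* in both, and 0 in the other 6. Of all genes with an adjusted p, it called 9 of 27359 with BaP in *Ahr*+/+ BMMs at 3 h and 90 of 13813 at 20 h.

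*Ptgs1* was the gene closest to a ligand effect. In activated *Ahr*+/+ BMMs at 3 h, it was at 5.69, 6.33, 6.44 and 8.28 CPM with DMSO, at 11.7, 13.6, 13.7 and 16.8 CPM with BaP and at 8.24, 9.74, 11.7 and 13.1 CPM with I3C. All 4 BaP libraries lay above all DMSO libraries (groups did not overlap for 3.91% of all genes), and the I3C libraries overlapped them by 1 library. In *Ahr*-/- BMMs, it was at 4.05, 2.11, 4.06 and 4.92 CPM with DMSO, at 2.37, 3.29, 4.30 and 4.51 CPM with BaP and at 2.97, 4.07, 4.89 and 4.56 CPM with I3C, and the 3 groups overlapped. For BaP in *Ahr*+/+ BMMs, the log2 fold change was 1.06 (SE 0.22, edgeR adjusted p = 0.0221), higher in 4 of 4 pairs of the same number. It was called with the replicate block (1.06, SE 0.18, adjusted p = 8.17e-04) and with DESeq2 (1.07, adjusted p = 3.40e-04). For I3C it was 0.68 (SE 0.22, edgeR adjusted p = 0.298).

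At 20 h, the counts of *Ptgs1* were too few for a firm statement. The 4 *Ahr*+/+ libraries with BaP held 62 counts and those with I3C 43, against 19 with DMSO, which gave ratios of pooled counts of 3.2 (95% counting interval 1.89 to 5.67) and 2.83 (1.61 to 5.14). BaP in *Ahr*-/- BMMs gave 31 counts against 19, a ratio of 1.47 (0.803 to 2.75). The log2 fold change in *Ahr*+/+ BMMs was 1.67 (SE 0.43, edgeR adjusted p = 0.0457) with BaP, which DESeq2 called (1.70, adjusted p = 0.00847) and edgeR with the replicate block did not (1.68, adjusted p = 0.0179), and 1.48 (SE 0.46, adjusted p = 0.147) with I3C.

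*Ptgs2* at 20 h was above all 4 DMSO libraries of *Ahr*+/+ BMMs (857, 816, 559 and 792 CPM) in every library with BaP (1162, 900, 1185 and 1285 CPM) and with I3C (1256, 1070, 928 and 1146 CPM), where groups did not overlap for 9.05% and 5.58% of all genes. The log2 fold changes of 0.58 (SE 0.20, edgeR adjusted p = 0.194) and 0.54 (SE 0.20, adjusted p = 0.382) were not called. With the replicate block, edgeR gave 0.62 (SE 0.17, adjusted p = 0.0255) and 0.55 (SE 0.17, adjusted p = 0.103), again not called. Over all genes, the block raised the number called in *Ahr*+/+ BMMs at 20 h from 34 to 271 with BaP and from 74 to 147 with I3C. Without AhR and without the block, the log2 fold changes of *Ptgs2* were 0.12 and -0.18 (SE 0.20 each). Without the block, the other 8 genes had no unadjusted p under 0.05 in any of these comparisons.

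**Figure D4:**
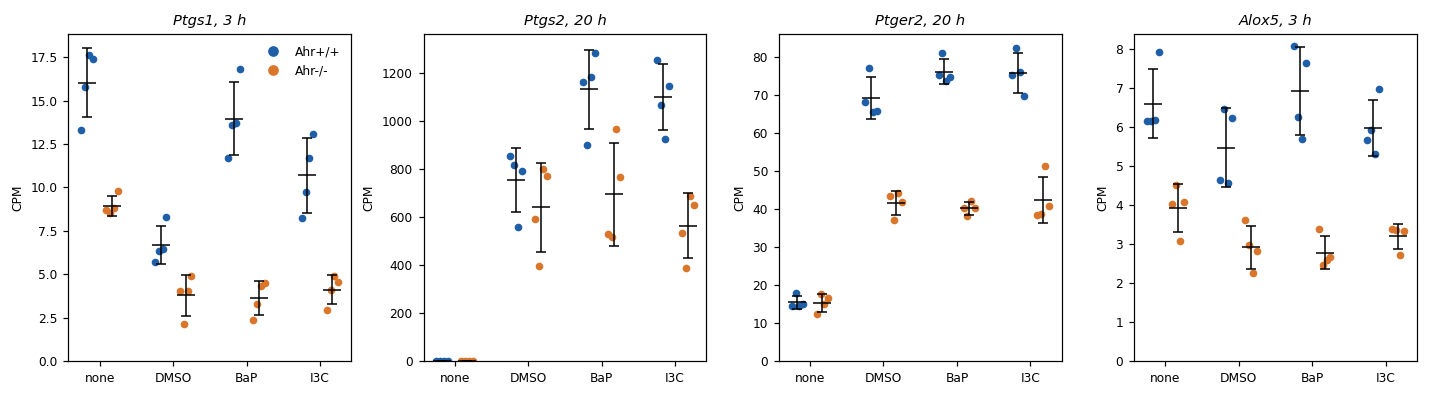
CPM of *Ptgs1* and *Alox5* at 3 h and of *Ptgs2* and *Ptger2* at 20 h in unactivated BMMs (none) and in activated BMMs with DMSO, BaP or I3C, with *Ahr*+/+ in blue and *Ahr*-/- in orange. Points are libraries and bars the mean with 1 SD (n = 4), and in *Ahr*+/+ BMMs every BaP library lies above every DMSO library for *Ptgs1* and *Ptgs2*, as every I3C library does for *Ptgs2*. With hk S.E. after DMSO, *Ptgs1*, *Alox5* and *Ptger2* do not overlap between the genotypes.

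A difference between the genotypes in the ligand effect was tested directly as well, and edgeR called 0 of 10 genes for BaP and for I3C at either time point, where 0.0138%, 0%, 0% and 0% of all genes were called for BaP at 3 h and 20 h and I3C at 3 h and 20 h. The numbers with an unadjusted p under 0.05 were 1, 1, 0 and 2, for which no share of all genes is given here, and DESeq2 called 0 in each. For *Ptgs1* with BaP at 3 h, the effect was larger in *Ahr*+/+ BMMs by 1.09 (SE 0.32, unadjusted p = 0.00132, edgeR adjusted p = 1). With I3C at 20 h, it was larger by 2.13 (SE 0.76, adjusted p = 0.987) for *Ptgs1* and by 0.72 (SE 0.28, adjusted p = 0.987) for *Ptgs2*. BaP at 20 h gave -0.37 for *Ptger4* (unadjusted p = 0.0391).

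BaP and I3C were also set against each other in activated *Ahr*+/+ BMMs. They differ in structure, in that BaP is a polycyclic aromatic hydrocarbon and I3C an indole with a hydroxymethyl group, and they were given at different doses (1 µM and 10 µM), so that structure and dose cannot be told apart. None of the 10 genes was called at 3 h or 20 h by edgeR, 0 and 0 had an unadjusted p under 0.05 and DESeq2 called 0 and 0, where edgeR called 0.11% and 0.282% of all genes. *Ptgs1* with BaP minus I3C was at 0.38 (SE 0.21) at 3 h and 0.19 (SE 0.37) at 20 h, and *Ptgs2* at 0.20 (SE 0.20) and 0.04 (SE 0.20).

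Other genes of the pathway were taken from a list of 50, of which 35 passed the filter on low counts. With hk S.E. in *Ahr*+/+ BMMs, 16 of the 35 were called at 3 h (9 higher, 7 lower) and 27 at 20 h (10 higher, 17 lower), where 56.6% and 58.6% of all genes were. Counts in *Ahr*-/- BMMs were 17 (10 higher, 7 lower) and 29 (11 higher, 18 lower), where 57.3% and 54.3% of all genes were called. Their median log2 fold change in *Ahr*+/+ BMMs was -0.06 at 3 h and -0.36 at 20 h. By role, the leukotriene genes were the most uniform, since all 5 tested (*Ltc4s*, *Mgst2*, *Mgst3*, *Ggt5* and *Dpep2*) fell at 20 h along with *Alox5*, *Alox5ap* and *Lta4h*. At 3 h, 1 of these 5 was called, *Dpep2*, which was then higher with hk S.E. in both genotypes. Of the 5 genes of prostanoid synthesis, *Ptges2* and *Ptges3* rose and *Hpgds*, *Cbr1* and *Akr1b3* fell. Among 12 genes of fatty acid release and reacylation, 3 rose (*Pla2g5*, *Pla2g7* and *Acsl4*) and 4 fell (*Pla2g15*, *Daglb*, *Lpcat3* and *Anxa1*). Of 7 receptors, *Ptgir*, *Cysltr2* and *Fpr2* rose and *Cysltr1* fell. Of 5 genes of export and breakdown, *Abcc4* rose and *Hpgd*, *Ptgr1*, *Ptgr2* and *Cyp4f18* fell.

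**Figure D5:**
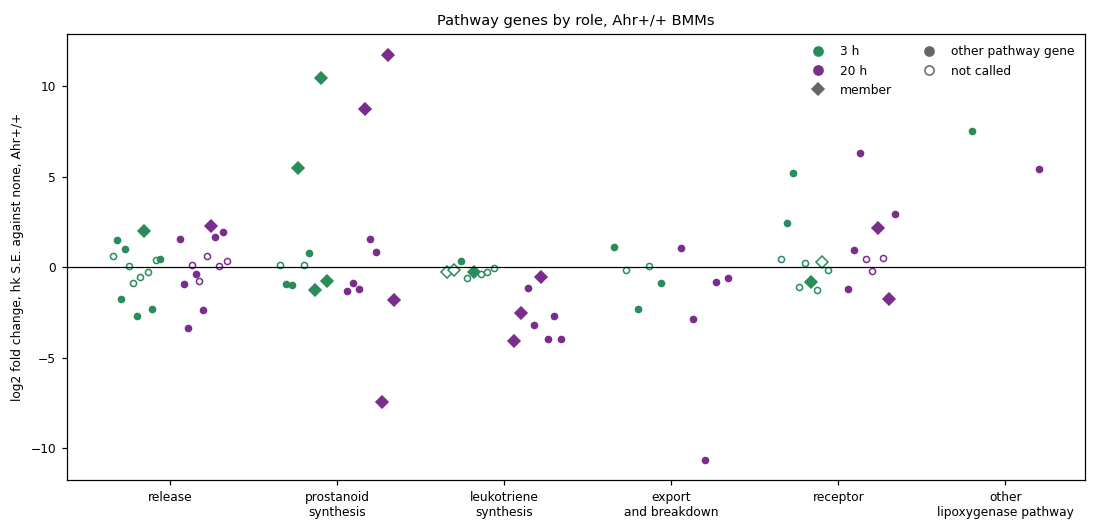
Log2 fold change with hk S.E. in *Ahr*+/+ BMMs at 3 h and 20 h for the 10 genes (diamonds) and the other tested pathway genes (circles) by role, filled where called and open where not. All leukotriene genes lie below 0 at 20 h, and the points of *Hpgd* at 20 h and *Alox12* are fitted values against groups at 0 counts, which depend on the prior count and are no bound.

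*Hpgd*, the dehydrogenase that starts the breakdown of PGE2, went from 3.55, 5.62, 1.82 and 3.79 CPM to 0.843, 0.792, 0.969 and 0.453 CPM at 3 h (log2 fold change -2.29, SE 0.37). At 20 h it had 0 counts in all 4 activated *Ahr*+/+ libraries and 7.39, 8.23, 4.69 and 6.13 CPM without hk S.E., and was thus at least 282-fold lower, taking 3 counts over the group as the floor. *Abcc4*, a transporter that exports prostaglandins, rose, by 1.10 (SE 0.12) at 3 h and 1.06 (SE 0.12) at 20 h on the log2 scale. Its rise in *Ahr*-/- BMMs at 20 h was 1.92 (SE 0.12), larger by 0.86 (SE 0.16, edgeR adjusted p = 2.43e-04), with 86.2, 86.5, 60.8 and 73.7 CPM against 53.8, 49.4, 53.7 and 51.6 CPM in activated *Ahr*+/+ BMMs.

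*Ltc4s*, the synthase of leukotriene C4, fell at 20 h by 3.99 (log2 fold change -3.99, SE 0.34), *Mgst3* by 3.96 (-3.96, SE 0.22) and *Ggt5*, which turns leukotriene C4 into D4, by 3.20 (-3.20, SE 0.31). *Daglb*, a diacylglycerol lipase that supplies arachidonic acid by way of an endocannabinoid, had -1.75 (SE 0.10) at 3 h and -3.38 (SE 0.10) at 20 h. *Ptgir*, the prostacyclin receptor, whose signal also raises cyclic AMP, went at 20 h from 13.4, 11.9, 14.9 and 13.4 CPM to 113, 87.0, 104 and 112 CPM (2.96, SE 0.20) in *Ahr*+/+ BMMs. *Fpr2*, a formyl peptide receptor that also binds lipoxin A4, rose by 5.20 (SE 0.35) at 3 h and 6.29 (SE 0.37) at 20 h. *Alox12* had 0 counts in every unactivated *Ahr*+/+ library and was at least 25.9-fold higher at 3 h and 21.4-fold at 20 h with hk S.E. All of these changes were called by edgeR.

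Between the genotypes in activated BMMs at 20 h, 5 of the 35 other genes were called, 3 lower and 2 higher in *Ahr*-/- BMMs. That is close to the 12.5% of all genes called there, so the count is not particular to the pathway. *Ptgir* was at 64.4, 47.8, 55.2 and 52.0 CPM there (log2 fold change -0.92, SE 0.18, edgeR adjusted p = 1.39e-04), lower in every library than in *Ahr*+/+ BMMs. *Cysltr2*, a receptor of cysteinyl leukotrienes, was lower by 1.67 (-1.67, SE 0.31, adjusted p = 5.20e-05) and the secreted phospholipase *Pla2g5* by 1.29 (-1.29, SE 0.38, adjusted p = 0.00936). *Abcc4* (0.56, SE 0.11, adjusted p = 2.06e-04) and *Lpcat2* (0.46, SE 0.11, adjusted p = 9.76e-04), which puts acyl chains back on lysophospholipids, were higher. As for *Ptger2*, genotype and series of identifiers cannot be told apart in these groups. In the other genotype comparisons and in all ligand comparisons, edgeR called 0 of the 35. Of them, 0 to 8 had an unadjusted p under 0.05, a count for which no share of all genes is given here. These 35 genes were tested with edgeR without the replicate block only. They were not tested with *Ahr*-/- libraries 1 and 2 alone.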

How the data were processed

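RNA-seq was performed on 64 libraries of *Ahr*+/+ and *Ahr*-/- BMMs. The authors demultiplexed reads with bcl2fastq 2.19.0.316, trimmed adapters, aligned read pairs to mm10 with HISAT2 2.1.0 and counted them on the exons of GENCODE release M22 with HTSeq 0.9.1 in stranded mode, and deposited raw counts per gene without normalization. Counting was in intersection-strict mode, so that pairs lying wholly on exon bases of 2 genes of the same strand were counted for neither. Entries that name no gene were left out of library sizes, and 74.9% to 80.8% of counted read pairs of a library lay on genes. A deposited table of variance-stabilized values was not used.

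Counts were analysed with edgeR 4.0.16 and limma 3.58.1 in R 4.3.3. The filter filterByExpr (min.count 10) kept 14537 of 55487 genes. Libraries were scaled by TMM (factors 0.761 to 1.34), and a quasi-likelihood model of 16 group means was fitted to all 64 libraries, with 48 residual and 5.06 prior degrees of freedom. Fold changes are log2 values with an SE from the F statistic. Benjamini-Hochberg adjustment ran over all genes tested in a comparison, and genes with an adjusted p under 0.01 were called, as in the study. CPM are counts divided by the library size after TMM scaling, and CPM per kb divide by the exon length in GENCODE M21 on GRCm38. Ratios of counts carry 95% exact intervals, which cover counting error only. The test was checked on simulated counts.

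The 10 genes, the pathway list and the marker lists were chosen with earlier results of these data known. All 10 genes are named. Of the other pathway genes with values, those were named that were called by genotype or in an interaction with genotype, and the 8 with the largest change with hk S.E. in *Ahr*+/+ BMMs, while others are named without values to account for a count. A direction of a gene that was not called was read only where its unadjusted p was under 0.32.

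Replicate numbers 1 to 4 were taken as the 4 mice of a genotype, which the methods give and the labels do not state. Within a time point, libraries of the same number deviated from their group means with a median correlation of 0.407 in *Ahr*-/- (45 of 48 pairs above 0.1) and 0.146 in *Ahr*+/+ BMMs (32 of 48). Alternatives were RLE size factors, no filter on low counts, the replicate number as a block, a covariate for the series of library identifiers, a fit of the compared groups only, DESeq2 1.42.0, a threshold of 0.05 and leaving out each library. Leaving out *Ahr*-/- libraries 3 and 4 was added after the data were seen.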

Additional observations from a re-analysis of the deposited data

Results flagged for a closer look

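Of 160 sets of 4 libraries (10 genes in 16 groups), 8 (5%) had a library far from the other 3 by Dixon's test, where chance gives about 1 in 20. *Pla2g4a* was at 126 CPM in *Ahr*+/+ DMSO replicate 2 at 3 h (others 95.4 to 99.6) and at 115 CPM in *Ahr*+/+ BaP replicate 2 at 3 h (92.2 to 96.2). *Ptgs1* was at 0.283 CPM in *Ahr*+/+ DMSO replicate 3 at 20 h (0.0898 to 0.112), and *Ptgs2* at 0.95 CPM in unactivated *Ahr*-/- replicate 1 at 3 h (0.426 to 0.497). *Alox5* was at 7.92 CPM in unactivated *Ahr*+/+ replicate 4 at 3 h (6.14 to 6.16) and at 2.71 CPM in *Ahr*-/- I3C replicate 3 at 3 h (3.33 to 3.39). Unactivated *Ahr*+/+ replicate 2 at 20 h was high for *Ptger2* (17.8 CPM, others 14.4 to 14.9) and low for *Ptger4* (29.1 CPM, others 32.3 to 32.7).

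By a test of the difference itself, the effect of hk S.E. at 20 h differed between *Ahr*-/- and *Ahr*+/+ BMMs by -0.72 for *Ptger2*, 0.86 for *Abcc4* and -2.03 for *Ahrr* (SE 0.28, edgeR adjusted p = 1.95e-06). From 3 h to 20 h, the effect of hk S.E. in *Ahr*+/+ BMMs changed by -6.16 for *Ptgs1*, 1.30 for *Ptgs2*, 3.23 for *Ptges*, -1.05 for *Tbxas1*, -3.83 for *Alox5*, -2.35 for *Alox5ap*, 2.99 for *Ptger2* and -2.04 for *Ptger4*. In *Ahr*-/- BMMs, it changed by 0.83 for *Pla2g4a*, -5.61 for *Ptgs1*, 2.15 for *Ptges*, -4.64 for *Alox5*, -2.11 for *Alox5ap*, 2.51 for *Ptger2* and -1.77 for *Ptger4*. The effect of BaP on *Ahrr* at 3 h was larger in *Ahr*+/+ BMMs by 3.69 (SE 0.55, edgeR adjusted p = 2.04e-04).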

How the results depend on the processing

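No log2 fold change of the 10 genes that was called turned its sign under any alternative. Of 75 calls of a gene in a comparison, DESeq2 kept 73, RLE size factors 71, no filter on low counts 70, the series as a covariate 68, the compared groups alone 65 of 73 (in the other 2 the gene failed the filter there), and *Ahr*-/- libraries 1 and 2 alone 33 of 40. The replicate block, which cannot be fitted to differences between the genotypes within a treatment, kept 69 of 70. Losing *Ptgs2* in the change from 3 h to 20 h in *Ahr*+/+ BMMs was its single loss. It raised the number of the 10 genes called in the interaction of hk S.E. with genotype at 20 h from 1 to 3. In unactivated *Ahr*+/+ BMMs over time that number went from 1 to 3, and with BaP in *Ahr*+/+ BMMs at 3 h from 0 to 1. Over all 14537 genes, the block raised the numbers in these comparisons as well, from 641 to 1505, from 883 to 1941 and from 7 to 13. The interaction of hk S.E. with genotype at 20 h gave 0 with the compared groups alone, 0 with *Ahr*-/- libraries 1 and 2 and 2 at a threshold of 0.05. Over time in unactivated *Ahr*+/+ BMMs, DESeq2 called 2 and a threshold of 0.05 gave 3. In unactivated *Ahr*-/- BMMs, 2 became 1 without the filter, 0 with the series, 1 with the compared groups, 1 with libraries 1 and 2, 4 at a threshold of 0.05 and 1 to 3 without single libraries. Between the genotypes, 1 in unactivated BMMs at 3 h became 0 with the series, 0 with libraries 1 and 2, 3 with DESeq2, 3 at a threshold of 0.05 and 0 to 2 without single libraries. At 20 h, 1 became 0 with RLE, no filter, the series, the compared groups or libraries 1 and 2, 3 at 0.05 and 0 to 1 without single libraries. With hk S.E. at 3 h, 0 became 2 with libraries 1 and 2, 2 with DESeq2 and 3 at 0.05, and at 20 h, 3 became 1 with the compared groups and stayed 3 with libraries 1 and 2, which lost *Alox5* and gained *Alox5ap*. BaP in *Ahr*+/+ BMMs went from 0 to 1 with DESeq2 and to 1 at 0.05 at both time points. The cause of these changes was not tested. Depth limits *Ptgs1* and *Alox5* in activated BMMs at 20 h, with 12 to 62 counts over a group of 4 libraries where counts are given.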

Other observations

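For each of the 10 genes, the 3 genes with the highest Pearson r over the 16 group means of log2 CPM were listed. All 16 points share the step between unactivated and activated BMMs, so such values describe these groups and carry no test. For *Ptgs1*, they were *Nusap1* (r = 0.9873), *Top2a* (0.9864) and *Cd93* (0.9857), of which *Nusap1* and *Top2a* act in mitosis. For *Ptgs2*, they were the kinase *Jak2* (0.998), *Eif4g2* (0.9968) and *Psme2b* (0.9964), and for *Ptges* *Rab32* (0.9984), *Cd38* (0.9974) and *Irak3* (0.9964). The leading gene was *Gm18541* for *Pla2g4a* (0.9892), *Lrp5* for *Tbxas1* (0.9901), *Slc6a6* for *Alox5* (0.9899), *Mamdc2* for *Alox5ap* (0.9974), *Dnajc9* for *Lta4h* (0.9908), *Bbs4* for *Ptger2* (0.9964) and *Ctnnb1* for *Ptger4* (0.9875).

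Among the 10 genes, over the same 16 means, r was 0.967 between *Pla2g4a* and *Ptgs2*, 0.933 between *Ptgs2* and *Ptges* and -0.962 between *Ptger2* and *Ptger4*. These pairs were picked and are not the strongest. The largest absolute r was that of *Ptges* and *Lta4h* (-0.979). *Ptgs1* and *Alox5* had 0.968, and *Alox5* and *Alox5ap* 0.965.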
